A study of Mus musculus with 24 samples.

Results

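Transcripts of brush border hydrolases were followed in the mouse intestine 3, 4 and 5 days after conditional deletion of Apc, and in colonic polyps of ApcMin mice. The set was a fixed list of 9 symbols (Lct, Sis, Treh, Enpep, Anpep, Mme, Dpp4, Ace and Asah2), and every probe set annotated to them was used. 8 of the 9 genes were represented, by 15 of the 35066 probe sets tested, among 15427 genes in all. No probe set carried the symbol Sis, so sucrase-isomaltase was not analysed here.

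24 Affymetrix MOE430_2 arrays were divided into 8 groups of 3. AhCre Apcfl/fl mice, which carry homozygous floxed Apc alleles, were sampled at days 3, 4 and 5, and AhCre wild-type mice at the same days. Cre is driven by the Cyp1a1 promoter, which beta-naphthoflavone switches on. All mice of both genotypes carried AhCre, received 3 injections of 80 mg/kg beta-naphthoflavone within a day and were kept on an outbred background, and all 18 of these samples were small intestine. The other 6 arrays held colonic polyps, pooled within an animal, and normal colonic mucosa of ApcMin mice, which carry a germline Apc mutation. These animals were untreated in 5 of the 6 colonic samples, and the treatment of polyp replicate 1 was not given. The 3 Apcfl/fl samples of day 4 carried numbers only, so they may share an animal. In that case the spread among them is technical. It would then enter the standard error of every comparison fitted with these arrays, those of other days included. The names of the 3 wild-type animals of day 4 all began with Ras and those of no other group did. What the prefix marks was not stated, another allele included, so that at day 4 genotype cannot be told apart from it. Normal colon replicate 1 carried another label prefix than the other 5 colonic samples.

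The brush border is the carpet of microvilli on the luminal face of the enterocyte, and its hydrolases complete the digestion of sugars, peptides and lipids there. These enzymes are membrane proteins that face the lumen. They are low in crypt progenitor cells and are switched on as enterocytes mature and move up the villus. Apc restrains Wnt signalling, and its loss keeps intestinal epithelial cells in a crypt-like, dividing state.

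Values are scaled signals, with the geometric mean of each array set to 100. Differences are on the log2 scale after an offset of 16 was added, and understate changes of dim probe sets. A gene is given by its brightest probe set, and levels were not compared between genes, because probe sets differ in affinity. Tests were two-sided limma fits with Benjamini-Hochberg adjustment over all 35066 probe sets and a threshold of 0.05. As each sample was whole tissue, fewer mature enterocytes and less RNA per enterocyte cannot be told apart.

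Axin2, a direct Wnt target, had a signal of 910 to 2084 across the 9 Apcfl/fl arrays, against 219 to 363 across the 9 wild-type arrays. The brightest Apc probe set overlapped, at 339.0 to 619.8 across Apcfl/fl arrays against 331.3 to 581.6 across wild-type arrays, and its place relative to the deleted part of the gene was not determined. All 8 genes of a crypt and Wnt list were called higher in Apcfl/fl on each day, against 10.8%, 14.9% and 20.5% of all genes at days 3, 4 and 5. The exocrine pancreas genes (4 of 7 represented) had a summed signal of 26668 in Apcfl/fl day 4 replicate 2 and of 23112 in wild-type day 5 replicate 3, against 102 to 558 in the other 22 arrays. The T cell genes (6 of 7 represented) summed to 524 to 906 across Apcfl/fl arrays against 929 to 1295 across wild-type arrays. Of the 6, 0 were called lower at day 3, 0 at day 4 and 3 at day 5, against 7.35%, 9.86% and 12.9% of all genes. Myeloid genes (8 of 8 represented) summed to 3264 to 3842 in Apcfl/fl against 4827 to 5998 in wild-type at day 3. At day 4 they summed to 2973 to 4076 in Apcfl/fl against 4452 to 4919 in wild-type, and they overlapped at day 5. Of the 8, 2 were called lower at day 3, 0 at day 4 and 3 at day 5. B and plasma cell genes (5 of 6 represented) summed to 2630 to 5734 in Apcfl/fl against 6418 to 7078 in wild-type at day 5, with 3 of the 5 called lower, and overlapped at days 3 and 4. The part of all these markers in the hydrolase results was not tested. The array SD of log2 signals was 2.26 to 2.34 across Apcfl/fl arrays against 2.00 to 2.18 across wild-type arrays at day 4. At day 5 it was 2.22 to 2.38 across Apcfl/fl arrays against 1.96 to 2.10 across wild-type arrays, and the ranges overlapped at day 3.

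Sequences upstream of 4 members are printed because these genes span the range of change described below. Each is the 250 bases before a RefSeq transcription start of GRCm38.p6, 5′ to 3′ on the gene's strand. Lct lies at chr1:128328319-128328568 (minus strand), Ace at chr11:105967698-105967947 (plus strand), Asah2 at chr19:32103141-32103390 (minus strand) and Anpep at chr7:79848211-79848460 (minus strand). Capitals mark matches on either strand to 4 motifs. The letters TTTAT are bound by Cdx factors and the letters GATAA by Gata factors. The letters GTTAAT are part of an Hnf1 site, and Tcf/Lef factors, which act in Wnt signalling, bind the letters CTTTGA.
Lct: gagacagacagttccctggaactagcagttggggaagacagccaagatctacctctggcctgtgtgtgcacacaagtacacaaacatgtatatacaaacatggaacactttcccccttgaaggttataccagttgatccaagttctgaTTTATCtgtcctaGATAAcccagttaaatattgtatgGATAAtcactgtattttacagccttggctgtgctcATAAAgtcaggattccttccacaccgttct
Ace: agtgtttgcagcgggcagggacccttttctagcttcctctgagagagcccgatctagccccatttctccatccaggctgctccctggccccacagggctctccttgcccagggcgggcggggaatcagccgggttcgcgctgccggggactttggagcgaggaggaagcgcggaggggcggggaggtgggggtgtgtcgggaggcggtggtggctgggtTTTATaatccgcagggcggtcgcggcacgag
Asah2: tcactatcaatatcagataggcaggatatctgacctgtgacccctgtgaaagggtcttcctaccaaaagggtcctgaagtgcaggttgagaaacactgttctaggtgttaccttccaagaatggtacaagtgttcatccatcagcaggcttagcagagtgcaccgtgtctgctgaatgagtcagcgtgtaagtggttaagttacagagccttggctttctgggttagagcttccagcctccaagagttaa
Anpep: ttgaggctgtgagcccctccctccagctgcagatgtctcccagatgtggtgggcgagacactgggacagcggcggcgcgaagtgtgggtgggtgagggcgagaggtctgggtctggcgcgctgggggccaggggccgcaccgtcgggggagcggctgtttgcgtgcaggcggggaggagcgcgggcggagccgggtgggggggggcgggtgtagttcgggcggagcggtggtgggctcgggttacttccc

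The Lct window held 5 matches, with Cdx motifs at positions -102 and -30 and Gata motifs at -101, -89 and -65 from the start, those at -102 and -101 overlapping. The Ace window held a single Cdx motif at -31. The Asah2 and Anpep windows held none. Of the windows not printed, those of Enpep and Dpp4 held a Cdx and a Gata motif each, 1 of 3 windows of Mme and the second window of Ace held a Tcf/Lef motif, and the Treh window held none. The window of Sis, which was not measured, held 4 Cdx motifs and the single match to the Hnf1 letters among the 12 windows of the 9 members, at -165. Of 32851 windows of this length, 37.3% held a Cdx motif, 22.6% a Gata motif, 13.8% a Tcf/Lef motif and 6.43% the Hnf1 letters. The GC content was 42.8% for Lct, 67.2% for Ace, 47.2% for Asah2 and 72.8% for Anpep. These matches are descriptions of letters, not binding sites, and binding was not measured.

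None of the hydrolases passed the test at day 3, and most were lower in Apcfl/fl intestine at days 4 and 5. At day 3 none of the 8 genes passed the limma test, where 7.35% of all genes were called lower. Only 1 of the 8 (Ace) was lower with an unadjusted limma p under 0.05, as were 2302 of all 15427 genes. At day 4, 5 of the 8 genes were lower (Ace, Asah2, Mme, Treh and Enpep), against 9.86% of all genes. At day 5, 6 of the 8 were lower (the same 5 and Lct), against 12.9% of all genes. None was higher on any day. The median log2 difference of the 8 genes was -0.37 at day 3, -1.36 at day 4 and -2.11 at day 5, where the median of all genes lay between 0.01 and 0.03. Over the mean of the 3 days, 7 of the 8 genes were lower, all except Anpep, against 24.5% of all genes. Dpp4 passed narrowly there (limma adjusted p 0.0465), and its call was lost with array weights, median centring or an offset of 1, and in 13 of 18 fits with a single array left out (limma adjusted p 0.0524 to 0.109). Anpep passed under quantile normalization and on the standardized scores (limma adjusted p 0.00069 and 0.0021), and without Apcfl/fl day 5 replicate 2 or wild-type day 3 replicate 1 (0.0457 and 0.0446).

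**Figure D1:**
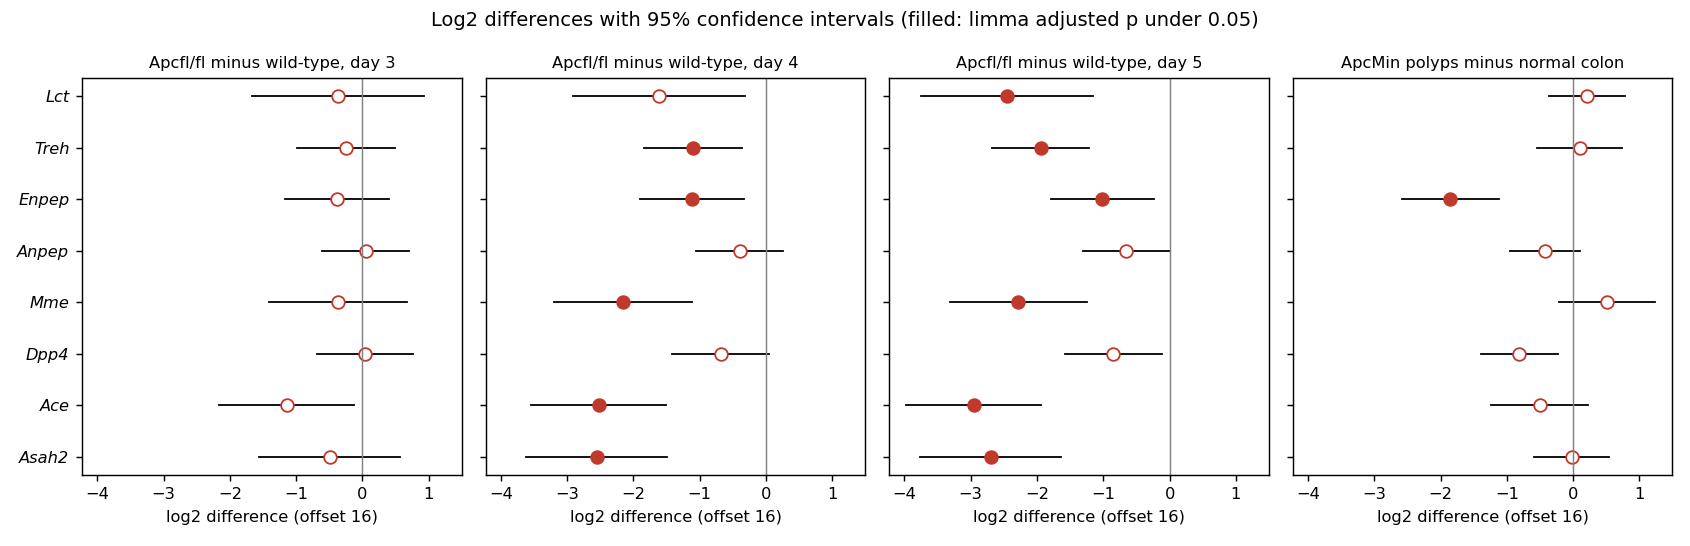
Log2 difference (horizontal axis, offset of 16) of each of the 8 hydrolase genes (rows), with 95% confidence intervals, for Apcfl/fl minus wild-type at days 3, 4 and 5 and for ApcMin polyps minus normal colon. Filled points passed the limma threshold of 0.05, and Ace, Asah2, Mme, Treh and Enpep are filled at both day 4 and day 5.

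Without overlap between the 3 arrays of each genotype, no gene was lower at day 3 (13.8% of all genes), 6 of 8 at day 4 (21.3% of all genes) and 5 of 8 at day 5 (20.9% of all genes). Leaving out the 2 arrays with high exocrine pancreas signal, an alternative chosen after seeing the data, left 3 of 8 genes lower at day 4 (Ace, Asah2 and Mme) and 7 of 8 at day 5. Enpep and Treh then had day 4 log2 differences of -1.003 and -1.057, and the count was also 3 without Apcfl/fl day 4 replicate 1, wild-type day 4 replicate 1 or wild-type day 4 replicate 2.

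The disaccharidases split milk and fungal sugars. Lct encodes lactase-phlorizin hydrolase, which cleaves lactose. At day 3 its signal was 5173, 2407 and 7023 in Apcfl/fl and 5147, 7908 and 4701 in wild-type animals. At day 4 it was 636, 543 and 1504 in Apcfl/fl and 4191, 4059 and 898 in wild-type animals. At day 5 it was 263, 299 and 1381 in Apcfl/fl and 4643, 2101 and 2044 in wild-type animals. The groups overlapped at days 3 and 4, at day 4 through the low wild-type replicate 3, and were separate at day 5. The log2 difference at day 4 was -1.61 ± 0.62 (SE), with a limma adjusted p of 0.0708, and without wild-type day 4 replicate 3 it was -2.33 with an adjusted p of 0.0161 in limma. The call was also gained without Apcfl/fl day 4 replicate 3, under quantile normalization and with array weights (limma adjusted p 0.0491, 0.0495 and 0.0190). At day 5 the mean signal was 4.53-fold lower in Apcfl/fl, a log2 difference of -2.46 ± 0.62 (SE, limma adjusted p 0.0064). Without Apcfl/fl day 5 replicate 3 the mean signal was 10.4-fold lower.

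Treh encodes trehalase, which cleaves trehalose. At day 3 its signal was 2521, 1236 and 2582 in Apcfl/fl and 1835, 3174 and 2294 in wild-type animals. It was 884, 980 and 1341 in Apcfl/fl and 3292, 2325 and 1551 in wild-type animals at day 4. By day 5 it stood at 187, 434 and 457 in Apcfl/fl and 1471, 1105 and 1469 in wild-type animals. All Apcfl/fl arrays lay below all wild-type arrays at days 4 and 5. The log2 difference was -1.11 ± 0.35 at day 4 and -1.95 ± 0.35 at day 5 (SE, limma adjusted p 0.0327 and 0.000619). At day 4 the call was lost when any of 4 arrays was left out (Apcfl/fl replicate 1 or 2, wild-type replicate 1 or 2), with adjusted p-values of 0.0837 to 0.138 in limma.

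The 2 aminopeptidases remove single residues from the amino end of peptides. Enpep, aminopeptidase A, acts on acidic residues. Its signal at day 3 was 5228, 3144 and 4072 in Apcfl/fl and 4355, 5939 and 5791 in wild-type animals. It was 1752, 2010 and 3742 in Apcfl/fl and 4820, 5299 and 5344 in wild-type animals at day 4. Day 5 values were 1084, 1371 and 3959 in Apcfl/fl and 4237, 4183 and 2781 in wild-type animals. The genotypes were separate at day 4 only, because Apcfl/fl day 5 replicate 3 lay above wild-type replicate 3. The log2 difference was -1.12 ± 0.37 at day 4 and -1.01 ± 0.37 at day 5 (SE, limma adjusted p 0.0398 and 0.0474). Both calls were close to the threshold and were lost when any of several arrays was left out. At day 4 these were Apcfl/fl replicate 1 or 2 and wild-type replicate 1, 2 or 3, with limma adjusted p-values of 0.0724 to 0.156. At day 5 they were Apcfl/fl replicate 1 or 2 and wild-type replicate 1 or 2, with limma adjusted p-values of 0.122 to 0.230. The day 5 call was also lost with median centring, an offset of 1, array weights, only the arrays of the comparison or probe sets averaged per gene (limma adjusted p 0.05003 to 0.104).

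Anpep, aminopeptidase N, acts on neutral residues and passed the test on none of the 3 days. At day 3 it was 8814, 5365 and 7866 in Apcfl/fl and 4538, 8816 and 8368 in wild-type animals. At day 4 it was 4307, 5742 and 7118 in Apcfl/fl and 7450, 6640 and 8087 in wild-type animals. The day 5 signal was 2161, 5220 and 3537 in Apcfl/fl and 5888, 6110 and 4339 in wild-type animals. The genotypes overlapped on every day. Its log2 difference was 0.05 ± 0.31 at day 3, -0.39 ± 0.31 at day 4 and -0.65 ± 0.31 at day 5 (SE), none of which passed the limma test (adjusted p 0.933, 0.385 and 0.124). The 95% interval at day 5 ran to -1.31 at its low end. Under quantile normalization the day 5 difference was -1.25 (limma adjusted p 0.00123), and on the deposited standardized scores it was -1.33 (limma adjusted p 0.00689). Without Apcfl/fl day 5 replicate 2 it was -0.96 (limma adjusted p 0.0350). The day 3 difference was negative under quantile normalization and on the standardized scores, at -0.20 and -0.17.

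Mme, neprilysin, is a zinc endopeptidase. Its signal at day 3 was 2563, 998 and 1461 in Apcfl/fl and 2114, 2130 and 1803 in wild-type animals. It was 384, 381 and 782 in Apcfl/fl and 2576, 2279 and 1881 in wild-type animals at day 4. Day 5 values were 131.2, 134.6 and 751.5 in Apcfl/fl and 2063, 920 and 987 in wild-type animals. Apcfl/fl arrays were below all wild-type arrays at days 4 and 5, with replicate 3 the highest of its group on both days. Its log2 difference was -2.16 ± 0.50 at day 4 and -2.28 ± 0.50 at day 5 (SE, limma adjusted p 0.00572 and 0.00231).

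Dpp4, dipeptidyl peptidase 4, removes dipeptides that end in proline or alanine. It measured 2671, 1621 and 3055 in Apcfl/fl and 1808, 2348 and 2884 in wild-type animals at day 3. At day 4 the signal was 1280, 1352 and 1558 in Apcfl/fl and 2189, 2141 and 2425 in wild-type animals. The signal was 477, 730 and 1245 in Apcfl/fl and 2183, 1514 and 788 in wild-type animals at day 5. The genotypes were separate at day 4 and overlapped at days 3 and 5. Log2 differences were -0.69 ± 0.35 at day 4 and -0.85 ± 0.35 at day 5 (SE, limma adjusted p 0.164 and 0.0733). With only the arrays of the comparison, the day 4 difference passed (limma adjusted p 0.0132). At day 5 the difference was -1.24 without wild-type replicate 3 (limma adjusted p 0.0143), the array with high exocrine pancreas signal, and -1.20 without Apcfl/fl replicate 3 (limma adjusted p 0.0209). It was -1.22 under quantile normalization and -1.29 on the standardized scores, with limma adjusted p-values of 0.0130 and 0.0242.

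Ace, angiotensin-converting enzyme, trims dipeptides from the carboxyl end and was lower in Apcfl/fl at days 4 and 5. At day 3 its signal was 2348, 762 and 3055 in Apcfl/fl and 2534, 5362 and 4399 in wild-type animals. It was 407, 407 and 562 in Apcfl/fl and 2334, 3088 and 2684 in wild-type animals at day 4. At day 5 it was 105, 285 and 412 in Apcfl/fl and 3473, 1655 and 1227 in wild-type animals. Apcfl/fl and wild-type arrays were separate at days 4 and 5, and overlapped at day 3 only in that Apcfl/fl replicate 3 lay above wild-type replicate 1. The mean signal was 5.89-fold lower at day 4 and 7.92-fold lower at day 5 in Apcfl/fl. On the log2 scale the difference was -1.14 ± 0.49 at day 3, -2.52 ± 0.49 at day 4 and -2.95 ± 0.49 at day 5 (SE, limma adjusted p 0.112, 0.00199 and 0.000301).

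Asah2, neutral ceramidase, splits the ceramide formed from dietary sphingolipid. It read 2880, 718 and 2883 in Apcfl/fl and 2410, 2428 and 2882 in wild-type animals at day 3. At day 4 it was 207, 264 and 471 in Apcfl/fl and 2168, 1824 and 1530 in wild-type animals. At day 5 it was 124, 99.0 and 433 in Apcfl/fl and 2111, 993 and 899 in wild-type animals. The groups were separate at days 4 and 5 and overlapped at day 3, where 2 Apcfl/fl arrays were at or near the highest wild-type value. The mean signal was 5.85-fold lower at day 4 and 6.11-fold lower at day 5 in Apcfl/fl, the second 11.99-fold without Apcfl/fl day 5 replicate 3. The log2 difference was -2.56 ± 0.51 at day 4 and -2.70 ± 0.51 at day 5 (SE, limma adjusted p 0.00242 and 0.000807).

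**Figure D2:**
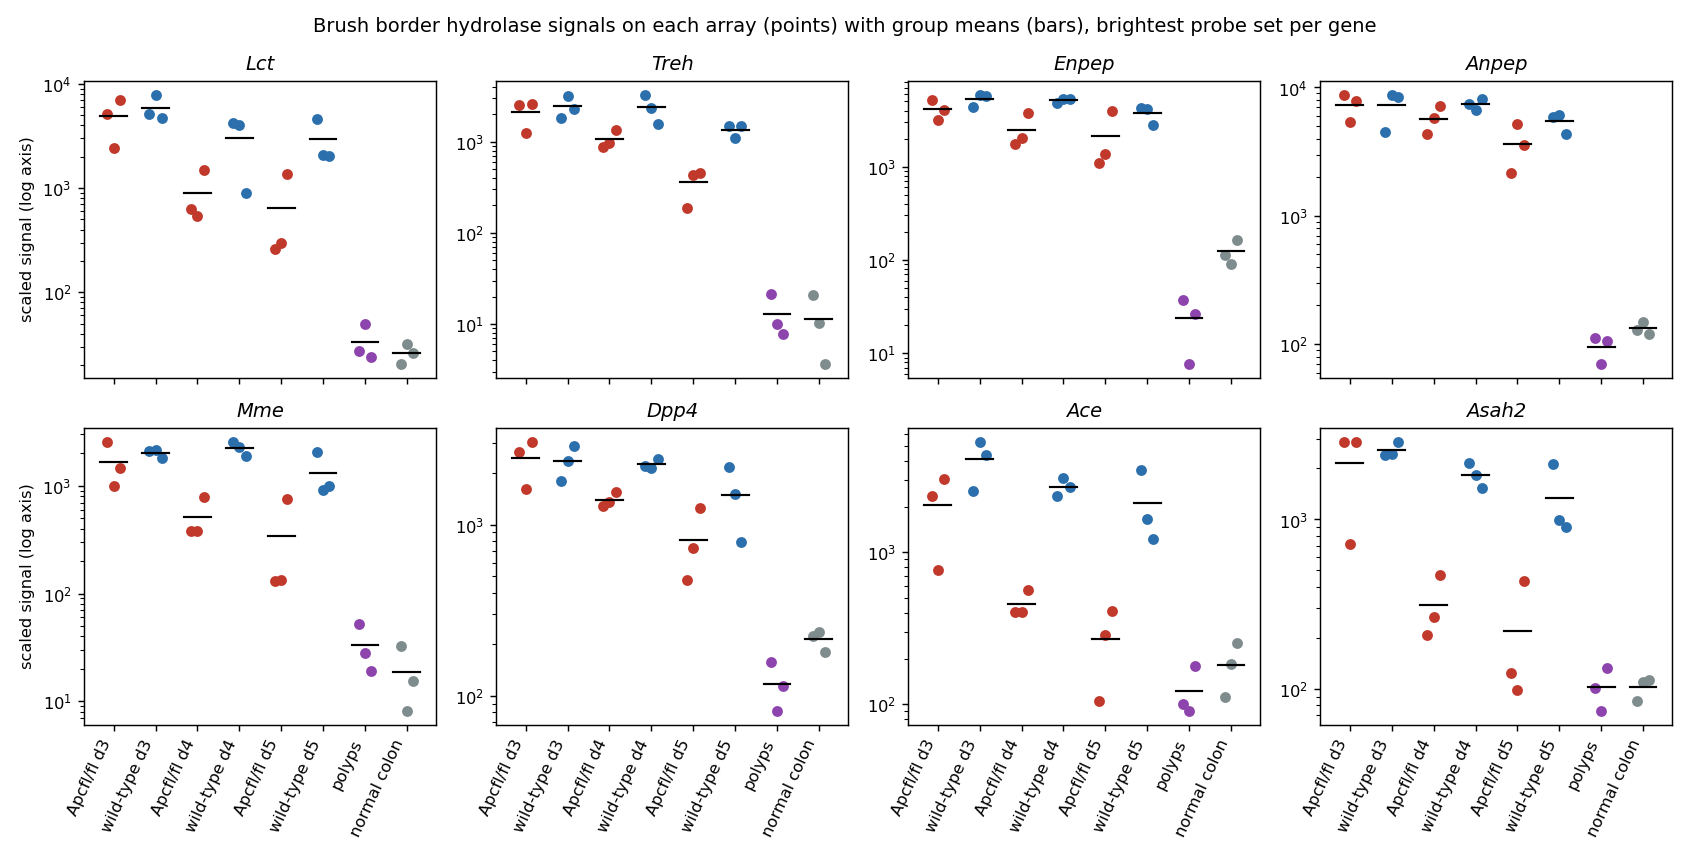
Scaled signal (vertical axis, log scale) of the brightest probe set of each hydrolase gene on each of the 24 arrays (points), with the group mean as a bar. Groups run from Apcfl/fl and wild-type at day 3 to ApcMin polyps and normal colon, and for Ace the Apcfl/fl arrays sit at 407 to 562 at day 4 and 105 to 412 at day 5, below all wild-type arrays of the same day.

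Further probe sets were present for Mme, Dpp4, Ace and Asah2. Of all 15, 1 was called lower at day 3 (7.33% of probe sets), 9 at day 4 (8.73%) and 11 at day 5 (11.6%), and none higher. The one called at day 3 was a dim Asah2 probe set, at 113, 72.9 and 103 in Apcfl/fl and 194, 176 and 241 in wild-type animals, a log2 difference of -0.97 ± 0.24 (SE, limma adjusted p 0.00912). Its groups were separate, unlike those of the brighter Asah2 probe sets at day 3. The second Ace probe set gave log2 differences of -1.41, -2.53 and -2.74 at days 3, 4 and 5, and the second Mme probe set 0.37, -1.99 and -1.66. For Dpp4, a dimmer probe set was called lower at day 5 (-0.97 ± 0.29, SE, limma adjusted p 0.0190) where the brightest was not, so the probe sets of Dpp4 disagreed on the call and had the same sign.

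The members moved together from array to array within groups as well as between groups. Apcfl/fl day 3 replicate 2 was below the mean of its own group for all 8 genes, with a median of -0.97 on the log2 scale against the wild-type mean of that day. The other 2 Apcfl/fl arrays of day 3 had medians of 0.13 and 0.14. At day 4 the medians were -1.74, -1.76 and -0.74, with replicate 3 above its group mean for all 8 genes. At day 5 they were -2.91, -2.14 and -0.83, again with replicate 3 above its group mean for all 8. Wild-type day 5 replicate 1 was above its own group mean for all 8 genes, by a median of 0.70.

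**Figure D3:**
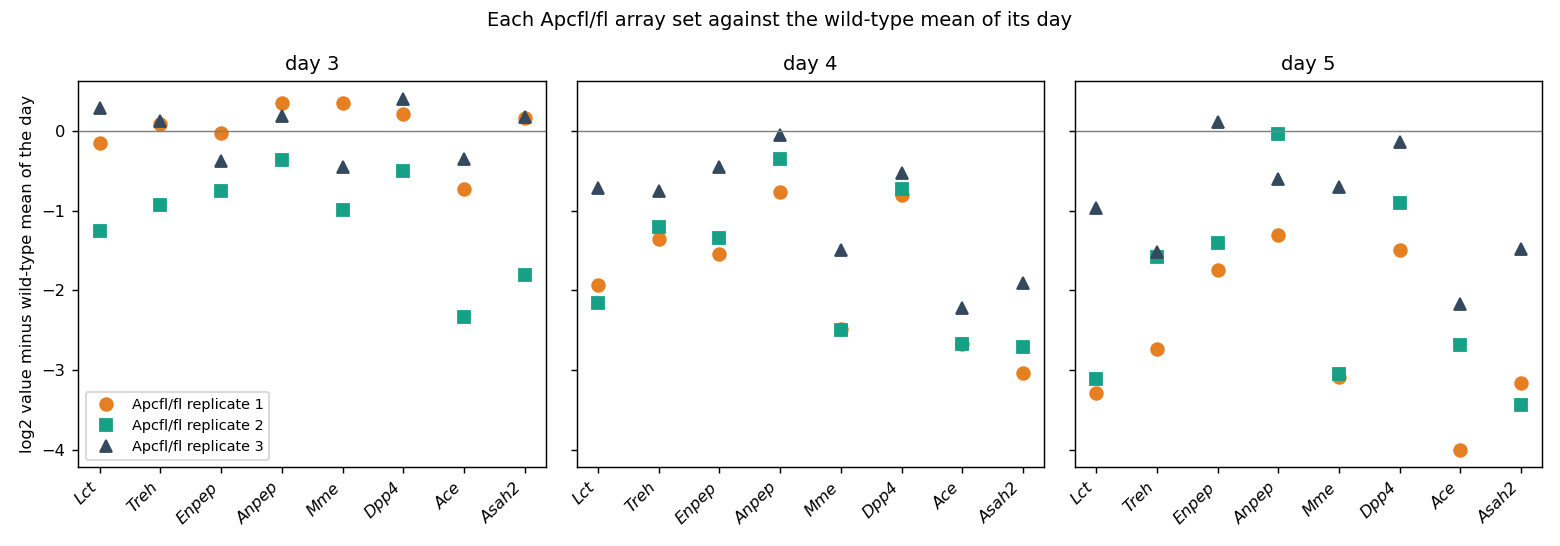
Log2 value of each Apcfl/fl array minus the wild-type mean of the same day (vertical axis) for the 8 hydrolase genes (horizontal axis), with replicates 1 to 3 marked by shape in a panel per day. At day 3 replicate 2 is the lowest array for all 8 genes, and at day 5 replicate 3 lies closest to the wild-type mean for most of them, with a median of -0.83.

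Over the 18 small intestinal arrays, the Pearson correlation of log2 values between members was 0.62 to 0.96 with a median of 0.86 over 28 pairs. After group means were removed it was 0.26 to 0.89 with a median of 0.69. Genotype, day and tissue composition differ among these arrays and may enter the correlations, which are descriptions. Among 9477 genes with a mean signal of 100 or more, the gene most like Lct was Pdzk1, a microvillar scaffold protein (r = 0.99). The nearest to Ace was Bcas1 (0.97), with Car4, a membrane-bound carbonic anhydrase, also at 0.97. Bst1 (0.98) was the nearest to Asah2, Aspa (0.97) to Mme and Fcgbp (0.97) to Treh. Mpp1 (0.96) was the nearest to Enpep, Tmbim6 (0.94) to Anpep and Ccl6 (0.92) to Dpp4. Next for Dpp4 came Clrn3 (0.92) and then Slc5a1, the sodium-glucose transporter (0.91). Slc43a2 stood among the nearest 3 for both Ace and Asah2.

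The change with time was then taken within each genotype. In Apcfl/fl mice all 8 genes were lower at day 5 than at day 3 in limma, against 6.76% of all genes, and 7 of the 8 did not overlap (13.9% of all genes). Asah2 was 9.89-fold lower in mean signal at day 5 (log2 difference -3.25 ± 0.51, SE, limma adjusted p 0.00142). Lct fell 7.52-fold and Ace 7.69-fold. Without Apcfl/fl day 5 replicate 3, Asah2 was 19.4-fold and Lct 17.3-fold lower. Anpep had a log2 difference of -1.07 ± 0.31 (SE, limma adjusted p 0.0300) and Enpep of -1.16 ± 0.37 (SE, limma adjusted p 0.0448). Both calls were lost with an offset of 1, with only the arrays of the comparison, and in 4 of 6 fits each with a single array left out. The limma adjusted p-values with an array left out ran to 0.149 for Anpep and 0.202 for Enpep where the call was lost. Tissue composition also moved in Apcfl/fl mice. Smooth muscle genes summed to 1825 to 3489 at day 3 and 4771 to 9095 at day 5, with 0 of 8 called in either direction. Of 5 represented B and plasma cell genes, 3 were called lower at day 5 than at day 3. The part of these markers in the change with time was not tested.

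In wild-type mice the same 8 genes also had lower values at day 5 than at day 3, by a median of -0.78 on the log2 scale. None passed the limma test on its brightest probe set (2.07% of all genes were lower). Of all 15 probe sets of the members, 1 was called lower (2.37% of probe sets). An unadjusted limma p under 0.05 was seen for 3 of the 8 genes, and for 1538 of all 15427 genes in the same direction. The groups did not overlap for 4 (Lct, Treh, Enpep and Asah2, against 11.1% of all genes). The difference of the genotype effect between day 5 and day 3 had a median of -1.76. None of the 8 passed the limma test for it (0.181% of all genes were lower). An unadjusted limma p under 0.05 was seen for 5, and for 1049 of all 15427 genes in the same direction. For Asah2 the difference was -2.20 (95% interval -3.70 to -0.70, limma adjusted p 0.138), for Treh -1.71 (-2.75 to -0.66, limma adjusted p 0.101) and for Anpep -0.70 (-1.63 to 0.22, limma adjusted p 0.458). Without Apcfl/fl day 3 replicate 2, 2 genes passed (Treh and Asah2), and without Apcfl/fl day 5 replicate 3, 2 passed (Asah2 and Mme).

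Some other genes of the mature enterocyte were also lower at days 4 and 5, where 9.86% and 12.9% of all genes were lower. Of 18 further brush border hydrolases 13 were represented, and 0 were called lower at day 3, 2 at day 4 and 4 at day 5, with median log2 differences of 0.04, -0.48 and -0.77 and none higher. At day 5 the called genes were Mgam, maltase-glucoamylase (-0.77, limma adjusted p 0.0135), Alpi, intestinal alkaline phosphatase (-1.01, 0.0107), Mep1b, a meprin subunit (-1.36, 0.00253), and Dpep1, a dipeptidase (-1.58, 0.00469). Of 12 genes of brush border structure 0, 2 and 7 were lower at days 3, 4 and 5, with a median of -0.68 at day 5. Vil1, which bundles microvillar actin, was not among them (-0.31 at day 5, limma adjusted p 0.394). Of 14 enterocyte transport and lipid genes 0, 5 and 9 were lower, with a median of -1.10 at day 5. Apoa1 and Fabp2, among the brightest, had values of -0.26 and -0.29 at day 5 and did not pass.

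Among 9 represented regulators of these enzymes, 0, 3 and 2 were called lower and 0, 1 and 2 higher at days 3, 4 and 5. Of all genes, 7.35%, 9.86% and 12.9% were lower and 10.8%, 14.9% and 20.5% higher. Not all of the called regulators are named here. Hnf4a did not pass on any day (0.45 at day 5, limma adjusted p 0.212). Creb3l3 was lower at day 4 (-1.50, limma adjusted p 0.00734) and day 5 (-1.27, 0.0127), and Hnf4g at day 4 (-1.32, 0.0238) and day 5 (-1.46, 0.00935). Cdx2 was higher at day 5 (0.87, limma adjusted p 0.0060) and Cdx1 at day 4 (0.87, 0.0400) and day 5 (1.05, 0.0118). None of 8 general epithelial genes was lower on any day, and 3 were higher at day 5. Their summed signal at day 5 was 32084 to 45445 across Apcfl/fl arrays against 24640 to 28657 across wild-type arrays.

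Markers of position along the intestine also differed. Genes of the distal small intestine (5 of 5 represented) summed to at most 735 across Apcfl/fl arrays against at least 1343 across wild-type arrays at day 5. At day 4 they summed to 749 to 1127 across Apcfl/fl arrays against 1514 to 2001 across wild-type arrays. At day 3 the ranges were 921 to 1755 across Apcfl/fl arrays against 1670 to 2612 across wild-type arrays. Genes of the proximal small intestine (5 of 5 represented) summed to 1655 to 2936 across Apcfl/fl arrays against 905 to 1287 across wild-type arrays at day 3, and overlapped at days 4 and 5. The part of sampling position in the hydrolase results was not tested.

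**Figure D4:**
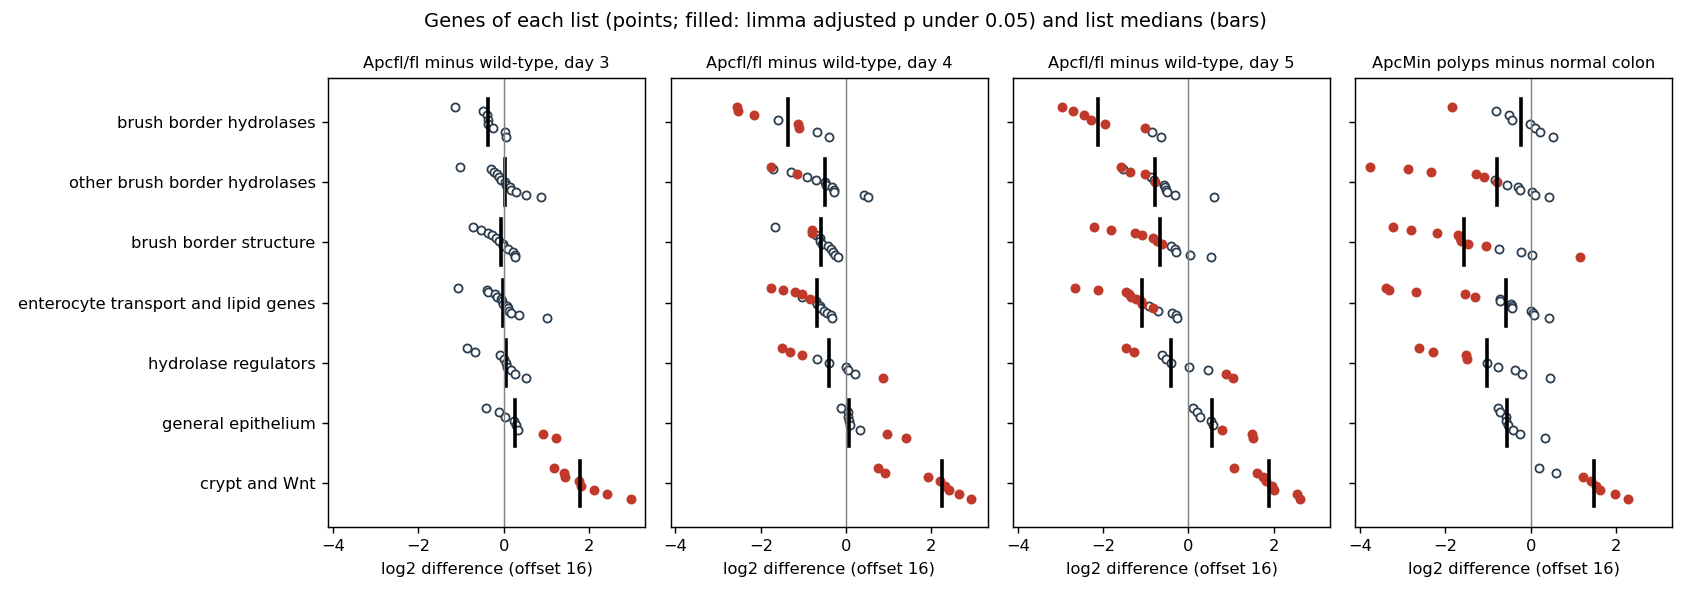
Log2 difference (horizontal axis, offset of 16) of each gene of 7 lists (rows) for Apcfl/fl minus wild-type at days 3, 4 and 5 and for ApcMin polyps minus normal colon, with list medians as bars and filled points past the limma threshold of 0.05. The hydrolase median moves to -0.37, -1.36 and -2.11 over the 3 days, while all 8 crypt and Wnt genes are filled on the positive side on each day. In the polyp panel 6 of these 8 are filled on the positive side (7.45% of all genes were called higher).

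In the colon the hydrolases were dimmer than in wild-type small intestine, and 1 of them differed between polyps and normal mucosa. All 8 genes were higher in wild-type small intestine than in normal colon (11.3% of all genes were called higher), with none of the arrays overlapping (7.93% of all genes). Dpp4 was 9.49-fold higher in mean signal and Anpep 50.4-fold. For Lct, Treh and Mme no fold is given, because their normal colon signals lay between 3.61 and 32.7. Tissue, Apc allele and beta-naphthoflavone treatment changed together in this comparison and cannot be told apart.

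Of the 8 genes, 1 was lower in polyps than in normal colon (9.11% of all genes were lower) and none was higher. With array weights Mme was called higher in polyps (1.06, limma adjusted p 0.0106). The gene called lower was Enpep, at 37.5, 7.62 and 26.3 in polyps and 114, 90.8 and 165 in normal colon. The polyp arrays lay below all normal colon arrays, and the log2 difference was -1.85 ± 0.33 (SE, limma adjusted p 0.0050). On the standardized scores it was -2.82 and did not pass (limma adjusted p 0.0617). Dpp4 was 157, 81.2 and 115 in polyps and 224, 237 and 181 in normal colon, also without overlap, with a log2 difference of -0.81 ± 0.26 (SE, limma adjusted p 0.0651). Anpep was the third gene without overlap (19.2% of all genes were lower without overlap), at 111, 69.7 and 106 in polyps and 129, 150 and 119 in normal colon. On their brightest probe sets the remaining 5 genes overlapped and none passed the limma test. Of all 15 probe sets, 2 were called lower in polyps (7.40% of probe sets) and 6 were lower without overlap. The 6 included dimmer probe sets of Dpp4 and Asah2. That of Asah2 was 38.8, 55.6 and 36.9 in polyps and 79.5, 57.4 and 82.2 in normal colon. Lct was 27.4, 49.6 and 23.8 in polyps and 20.4, 31.7 and 26.4 in normal colon, and Treh 21.2, 10.1 and 7.68 in polyps and 20.6, 10.3 and 3.61 in normal colon. Mme was 52.1, 28.2 and 19.2 in polyps and 32.7, 8.07 and 15.4 in normal colon. No colonic array of these 3 genes exceeded 52.1, and neither tissue was higher on all arrays. Ace was 101, 90.1 and 178 in polyps and 112, 183 and 252 in normal colon. Asah2 was 101, 73.7 and 133 in polyps and 84.7, 110 and 113 in normal colon. The Apcfl/fl day 5 ranges of Ace (105 to 412) and Asah2 (99.0 to 433) overlapped these colonic ranges, while those of the other 6 genes lay above every colonic array. Smooth muscle genes (8 of 8 represented) summed to 1777 to 4032 in polyps and 12286 to 17158 in normal colon. B and plasma cell genes summed to 3908 to 4184 in polyps and 7896 to 10734 in normal colon, with 5 of 5 called lower. T cell genes summed to 367 to 393 in polyps and 428 to 621 in normal colon, with 0 of 6 called lower. Myeloid genes summed to 5836 to 8981 in polyps and 4326 to 5580 in normal colon, with 3 of 8 called higher (7.45% of all genes). The part of these markers in the hydrolase differences was not tested. Other enterocyte lists held more genes called lower in polyps. These were 6 of 13 further brush border hydrolases, 8 of 12 brush border structure genes, 5 of 14 transport and lipid genes and 4 of 9 regulators. Of these lists only brush border structure held a gene called higher (1 of 12).

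The polyp difference was higher than the mean Apcfl/fl difference for 4 of the 8 genes (7.06% of all genes were higher), and lower for none. These were Mme (2.11), Asah2 (1.89), Ace (1.70) and Treh (1.19), with limma adjusted p-values of 0.0117, 0.0201, 0.0361 and 0.0459. With single arrays left out 1 to 5 genes passed, the fewest without polyp replicate 1. The call for Treh was lost in 13 of 24 such fits (limma adjusted p 0.0527 to 0.151), that for Ace in 5, and those for Mme and Asah2 in 1 each. Colonic signals of Mme and Treh lay between 3.61 and 52.1, near the offset of 16, so a decrease in polyps had little room to appear on this scale. Normal colon signals of Ace (112 to 252) and Asah2 (84.7 to 113) overlapped the Apcfl/fl day 5 ranges of 105 to 412 and 99.0 to 433. The room for a decrease was thus smaller in colon for these genes too. For Enpep the value was -1.01 (95% interval -1.92 to -0.11, limma adjusted p 0.119), and for Anpep -0.10 (-0.81 to 0.61, limma adjusted p 0.877). Other lists went the other way from the members. Of 13 further brush border hydrolases 0 were called higher and 3 lower, and of 12 structure genes 1 higher and 7 lower. Of 14 transport and lipid genes 1 was higher and 4 lower. Of all genes, 10.9% were lower.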

How the data were processed

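Arrays were MOE430_2, 3 per group, which limits the precision. What the authors deposited were standardized score values in 2 tables, identical in 842640 of 842640 cells, with summarising software not stated in any source used. Each score proved to be a centred natural-log signal over its array's SD. The linear signal was recovered through its step of 0.1 and floor at 1 (tolerance 0.1 of a step, signals under 500, 100% whole) and scaled to a geometric mean of 100. Groups came from the labels and symbols from GEO's platform annotation: 28153 probe sets had 1 symbol, 769 several and 6144 none, and 44 control probe sets were left out. log2(signal + 16) was fitted in limma 3.58.1 (R 4.3.3), two-sided, on the 18 small intestinal arrays together, the 6 colonic arrays alone, and all 24 across tissues. The fits were tested on simulated data. All members are reported. Of other lists, at most 4 genes with the highest mean level were to be named, plus Axin2; regulators and hydrolases named beyond these were chosen after their values were seen. Members and lists were chosen with earlier results of these data known. Alternatives covered normalization, offset, filter, array weights, probe set choice and each array left out.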

Additional observations from a re-analysis of the deposited data

Results flagged for a closer look

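For 4 members the effect differed between ApcMin polyps and Apcfl/fl small intestine in the limma test of the difference itself. The polyp difference minus the mean Apcfl/fl difference was 2.11 for Mme, 1.89 for Asah2, 1.70 for Ace and 1.19 for Treh on the log2 scale. The polyp differences themselves were 0.51, -0.02, -0.50 and 0.10, and the mean Apcfl/fl differences -1.60, -1.92, -2.21 and -1.10 in the same order of genes. Normal colon signals of all 4 lay below every wild-type small intestinal array, which left less room for a decrease in polyps. Tissue, Apc allele and treatment changed together here and cannot be told apart.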

How the results depend on the processing

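Arrays number 3 per group, so calls near the threshold moved with single arrays, and colonic signals of Lct, Treh and Mme were too dim for a decrease to be measured well. No paired analysis was possible because the groups share no replicate numbers in the labels. The study's methods call the polyp and normal colon tissue paired, but the labels name different animals, and the colonic arrays were treated as unpaired. The counts of hydrolase genes called at day 3, at day 5, over the mean of days, between days 3 and 5 within each genotype and between tissues stayed within 1.5 times under every alternative. At day 4 the count was 3 with an offset of 1 and 3 without the 2 arrays with high exocrine pancreas signal, and 3 to 6 with each array left out. For the difference of the genotype effect between days 5 and 3 it was 0 to 2 with each array left out. It was 5 without both Apcfl/fl day 3 replicate 2 and Apcfl/fl day 5 replicate 3, an alternative added after seeing the data. Those 2 arrays were picked by the members' own values, so that count supports nothing. In polyps the count was 2 under quantile normalization, with an offset of 64, with dim probe sets dropped and with the mean of all probe sets, 3 with array weights (2 lower, Enpep and Ace, and 1 higher, Mme) and 0 on standardized scores. For the polyp minus Apcfl/fl difference it was 2 with an offset of 1 and on standardized scores, and 1 to 5 with each array left out. Changes of sign were seen only where nothing had been called. At day 3, Dpp4 was -0.11 under quantile normalization, -0.12 on standardized scores and -0.20 with the mean of its probe sets, and -0.15 to 0.31 with each array left out. Anpep was -0.20 under quantile normalization, -0.17 on standardized scores and -0.26 to 0.26 with each array left out. Ranges with each array left out at day 3 were -0.70 to 0.065 for Lct, -0.43 to 0.10 for Treh and -0.82 to 0.17 for Asah2. The upper ends, 0.065, 0.10 and 0.17, came without Apcfl/fl day 3 replicate 2, and were the same without both picked arrays. In polyps these ranges were -0.012 to 0.35 for Lct, -0.12 to 0.32 for Treh and -0.20 to 0.16 for Asah2. Of 1149 values of single genes under an alternative, 1026 kept direction and side of the threshold, 76 lost a call, 24 gained one and 23 changed sign. The causes were not tested.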
